A study of Mus musculus with 32 samples.

Results

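The 82 genes for the proteins of the cytosolic ribosome were followed across sorted donor T cells in a mouse model of graft-versus-host disease (GVHD). They were chosen by symbol from the 16741 genes of one RNA table, as Rps, Rpl, Rplp or Rpsa symbols of that form. Pseudogene symbols, the Rps6 kinases and Rps3a copies were left out. The set holds 33 genes of the small subunit and 49 of the large subunit, and none was at 0 in any library. The table gives 31 libraries, each a bulk sample of one sorted cell type from spleen and lymph nodes. The description of the series names C57Bl6 mice as the donors. Regulatory T cells (Treg), CD8 cells and conventional CD4 cells were taken before transplant (day 0, 2 libraries of each). Others were recovered from Balb/c hosts, a major mismatch, after transplant without Treg (allogeneic, 4 CD4 and 4 CD8 libraries) or with Treg given on day 0 (Treg-treated, 4 CD4, 4 CD8 and 3 Treg libraries). A further 3 CD4 and 3 CD8 libraries came from syngeneic hosts. The sample titles put the recovered cells at day 6, while the description of the series says 8 days; day 6 is used here as a label. Replicates carry the prefix JL019 or JL027 and in most groups a number. Nothing in the labels says that replicates were separate animals, so p-values measure the spread between these libraries, which may be technical.

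Ribosomal proteins assemble with ribosomal RNA into a small subunit, which reads the messenger RNA, and a large subunit, which joins amino acids. Their messengers begin with a run of pyrimidines, the 5′ terminal oligopyrimidine or TOP motif, through which the kinase mTOR adjusts how strongly they are translated. T cells that are activated and start to divide enlarge their pool of ribosomes, and a few ribosomal proteins have a second copy in the genome that is used in some tissues.

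The annotated start sites of the genes the results turn on are shown first, since the pyrimidine run of the family is looked for there. Each window runs from 10 bases before the annotated start to 20 bases from it (the start is base 11), from RefSeq on GRCm38.p6, and capitals mark the longest unbroken run of C and T in the window. The paralog pairs are set beside each other, followed by genes named below for the size of their change and 2 with long runs.
Rps27, small subunit, chr3:90213629-90213658, minus strand: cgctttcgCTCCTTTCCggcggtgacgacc
Rps27l, paralog of Rps27, chr9:66946076-66946105, plus strand: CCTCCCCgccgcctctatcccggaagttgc
Rpl22, large subunit, chr4:152325716-152325745, plus strand: CCTgggaaaagcaatagctggccgatcgtt
Rpl22l1, paralog of Rpl22, chr3:28805498-28805527, plus strand: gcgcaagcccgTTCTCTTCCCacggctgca
Rpl39, large subunit, chrX:37085203-37085232, minus strand: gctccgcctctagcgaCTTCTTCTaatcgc
Rpl39l, paralog of Rpl39, chr16:10170218-10170247, plus strand: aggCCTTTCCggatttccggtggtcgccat
Rpl18, large subunit, chr7:45718061-45718090, plus strand: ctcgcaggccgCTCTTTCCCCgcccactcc
Rpl12, large subunit, chr2:32961702-32961731, plus strand: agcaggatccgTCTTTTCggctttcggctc
Rps6, small subunit, chr4:86857348-86857377, minus strand: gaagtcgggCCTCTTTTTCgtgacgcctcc
Rpl4, large subunit, chr9:64173377-64173406, plus strand: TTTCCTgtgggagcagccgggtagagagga
Rplp0, stalk of the large subunit, chr5:115559457-115559486, plus strand: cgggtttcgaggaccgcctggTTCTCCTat
Rpl27a, large subunit, chr7:109519185-109519214, plus strand: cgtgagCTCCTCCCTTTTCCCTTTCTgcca
Rpl15, large subunit, chr14:18270967-18270996, minus strand: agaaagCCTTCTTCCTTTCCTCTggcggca

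A run of at least 8 C or T on the gene's strand lay in a window of 24 of the 60 members that had one (40.0%), against 1594 of 11658 other genes (13.7%). A gene with several annotated starts, as 9 members had, was counted when any of its windows held the run. Over genes with 1 annotated start the run was in 20 of 51 members (39.2%) and in 1045 of 9400 other genes (11.1%). Of 69 mitochondrial ribosomal protein genes, which encode the ribosome of another compartment, 6 held such a run (8.70%). The mirror search for a run of at least 8 A or G found 3 members (5.0%) and 1721 other genes (14.8%). The longest runs measured 20 bases in Rpl27a, 18 in Rpl35 and 17 in Rpl15 and Rpl7a. Rpl22 had 3 in the window shown and 5 at its other start, and its paralog Rpl22l1 had 10. Rps27 had 9 and Rps27l 7 in the window shown and 4 at its other start. A run is a description of the letters around annotated starts, and 22 members had no window in the table.

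The values are scaled counts: the authors' read counts per gene divided by a factor per library. The highest library total was less than 2 times the lowest, and the number of reads behind them is unknown. Cd8a was above Cd4 in every CD8 library, and Treg libraries held Cd4 at 7239 to 16083. One CD4 syngeneic library, JL019-2, stood apart, with Cd4 at 1659 and Cd8a at 1956, against Cd4 at 16526 and 14576 and Cd8a at 58 and 114 in the others of its group. A list of 9 myeloid markers made up 10.7% of that library's total and 0.331% and 0.325% of the other CD4 syngeneic libraries. Values without JL019-2 are given beside some of the CD4 syngeneic results, and shares, medians and ratios of that group include JL019-2 unless stated. That list held 0.022 to 0.042% of the CD4 allogeneic libraries, 0.088 to 0.268% of the CD4 Treg-treated, 0.025 to 0.038% of the CD8 allogeneic and 0.130 to 0.192% of the CD8 syngeneic libraries. Among 4 CD4 Treg-treated libraries JL027-1 had Cd4 at 17587, as in the allogeneic group (16706 to 21481), whereas the other 3 had 8722 to 9370. Of 8 B cell markers 7 were in the table, and together they held 0.179 to 0.191% of the CD4 and 0.272 to 0.281% of the CD8 day 0 libraries, against 0.049 to 0.060% and 0.034 to 0.041% of the CD4 and CD8 allogeneic libraries. In bulk samples fewer cells of a type and less RNA per cell cannot be told apart. Reads of near-identical copies may be split between genes, so the values of Rps12 and Rps12l1, of Rps27, Rps27l and Rps27rt, of Rpl39 and Rpl39l, of Rps4x and Rps4l and of genes with processed pseudogenes are uncertain; the 99 pseudogene symbols together held 0.069 to 0.178% of a library.

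Ribosomal protein genes took between 3.19 and 7.31% of a library's total. Before transplant the share was 4.34 and 4.04% in CD4 cells, 5.56 and 6.12% in CD8 cells and 5.31 and 4.54% in Treg. After allogeneic transplant it was 3.67, 3.26, 3.79 and 3.22% in CD4 cells and 3.74, 3.66, 4.57 and 3.68% in CD8 cells, below every day 0 library of the same cell type. Syngeneic hosts gave 3.88, 4.57 and 4.86% in CD4 and 5.70, 5.0 and 7.31% in CD8 cells, all above the allogeneic libraries of that cell type. In Treg-treated hosts the CD4 cells held 6.47, 5.86 and 6.41% in 3 libraries and 4.02% in JL027-1, all 4 above the CD4 allogeneic range. The CD8 cells of the same hosts spread from 3.44 to 6.92% and overlapped their allogeneic group. Treg recovered from these hosts were low, at 3.19, 3.77 and 3.46%, below both day 0 Treg libraries and below every CD4 library of treated hosts.

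Averaged over libraries, the share of CD4 cells rose from 3.48% ± 0.290 (SD, n = 4) in allogeneic to 5.69% ± 1.15 (SD, n = 4) in Treg-treated hosts, a difference of 2.21 percentage points against a pooled SD of 0.837. For CD8 cells the means were 3.91% ± 0.438 (SD, n = 4) and 4.76% ± 1.54 (SD, n = 4), a difference of 0.844 points and within the pooled SD of 1.13. Without treated JL019-2 it was 0.123 and without treated JL019-1 1.28 points. CD8 syngeneic cells had a mean of 6.0% ± 1.18 (SD, n = 3), 2.09 points above CD8 allogeneic cells with a pooled SD of 0.821. Treg fell by 1.46 points from 4.93% ± 0.547 (SD, n = 2) at day 0 to 3.47% ± 0.287 (SD, n = 3), with a pooled SD of 0.394. No p is given for these shares, because the genes are a chosen list.

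The share does not depend on the factor per library, but it moves when other abundant genes move. The genes were therefore set against 90 other short, abundant genes. These were non-members with a genomic span of at most 4439.25 bases, the members' 75th percentile, and a mean at or above the members' 25th percentile. Only these limits were set, so span and level were not matched, and genomic span is not transcript length. These other short genes include T cell effector genes such as Gzmb, metabolic genes such as Cox8a and neutrophil genes such as Ngp. They are thus a comparison within limits of span and level and not of function. Centred on each gene's mean over all libraries, the median member stood 0.41 ± 0.013 log2 units above the median other short gene in CD4 day 0 cells, 0.82 ± 0.014 above in CD8 and 0.66 ± 0.057 above in Treg (SD, n = 2 each). In every recovered group this difference was smaller. It was -0.36 ± 0.125 and -0.29 ± 0.069 in CD4 and CD8 allogeneic cells (SD, n = 4 each), -0.12 ± 0.116 and -0.23 ± 0.226 in CD4 and CD8 cells of treated hosts (SD, n = 4 each), 0.00 ± 0.200 and 0.22 ± 0.094 in CD4 and CD8 syngeneic cells (SD, n = 3 each) and -0.13 ± 0.049 in recovered Treg (SD, n = 3).

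**Figure D1:**
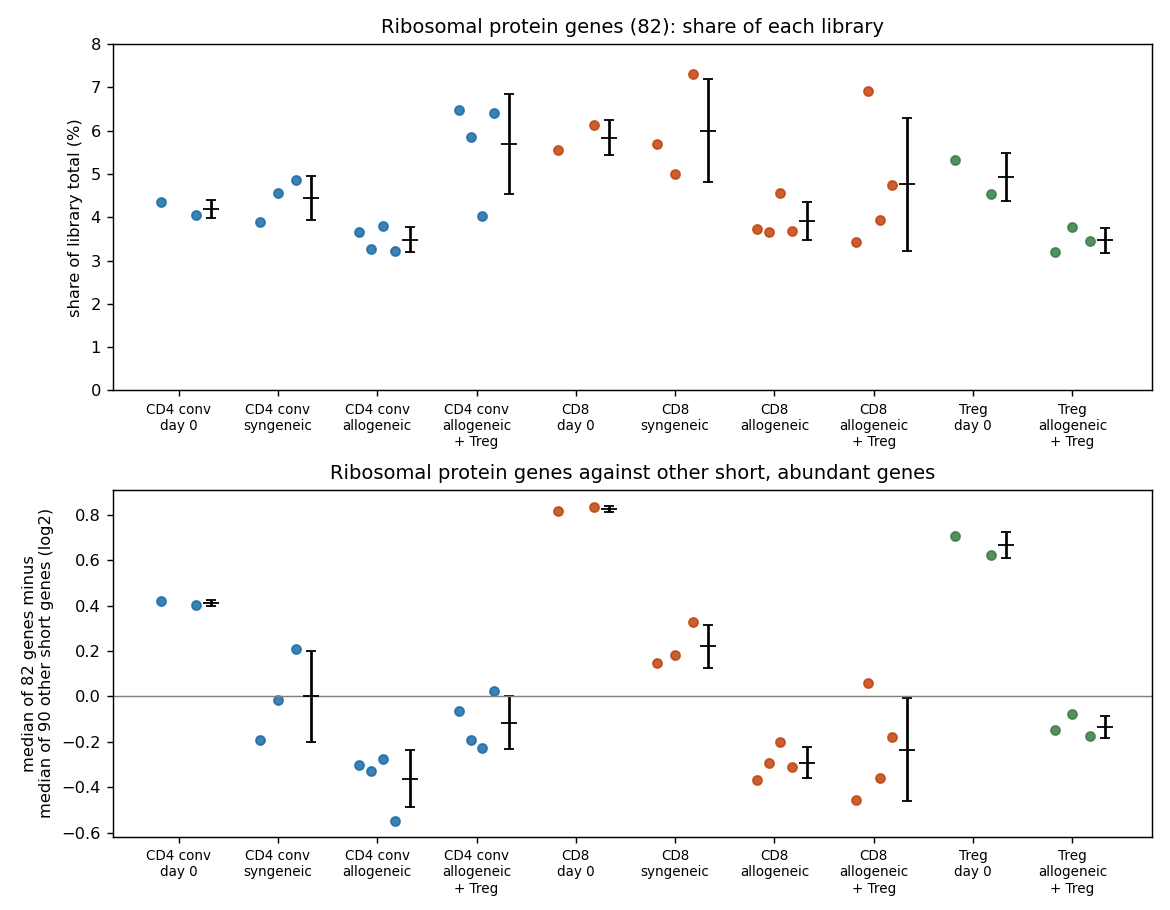
Share of each library's total scaled counts held by the 82 ribosomal protein genes (upper panel, percent) and the median member minus the median of 90 other short genes (lower panel, log2 units), by group. Points are libraries, bars the group mean with its SD, blue CD4, orange CD8 and green Treg; 3 CD4 Treg-treated libraries lie at 5.86 to 6.47% and the fourth at 4.02%, and every recovered group has a lower mean in the lower panel than its day 0 group.

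The first comparison asked how CD4 cells of hosts given Treg differed from those of allogeneic hosts. Of 82 ribosomal protein genes 77 rose and none fell, with a median change of 0.98 log2 units over all members and a range from 0.33 to 1.17. A gene was called when its adjusted p was under 0.05 in limma, fitted over all genes with Benjamini-Hochberg adjustment. By that rule 22.2% of all genes were called and 10.7% were called higher. Adjusted p of the called members ran from 0.0118 to 0.0478. In the small subunit 32 of 33 genes rose, with a median of 1.00, and in the large subunit 45 of 49, with a median of 0.95. All 4 treated libraries lay above all 4 allogeneic libraries for 64 members, against 12.0% of all genes. The transcripts of the mitochondrial genome took 2.28, 1.82, 1.59 and 2.53% of the treated libraries (1.59% in JL027-1), all above the 1.01 to 1.57% of the allogeneic libraries. Marker lists of other cell types moved as well. The myeloid list (above) and the B cell list (0.066 to 0.076% against 0.049 to 0.060%) were higher in the treated libraries, and the list of 3 natural killer (NK) markers was lower (0.0011 to 0.0014% against 0.0017 to 0.0023%). A list of 7 erythroid markers held 0.015 and 0.018% of the treated and 0.0015 and 0.0018% of the allogeneic JL019 libraries, and 0.186 and 0.205% against 0.032 and 0.040% of the JL027 libraries. The part of these shares in the rise was not tested.

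The acidic proteins of the stalk, which recruits translation factors to the large subunit, were among them. Rplp1 had 6853, 5439, 6655 and 5570 scaled counts in CD4 allogeneic and 16996, 16134, 7964 and 15279 in treated libraries. The groups did not overlap, and JL027-1 with 7964 stood near the allogeneic libraries. Rplp1 rose by 1.15 log2 units (SE 0.27, adjusted p = 0.0118 in limma), or 2.22-fold. Rplp2, its partner, had 8234, 6785, 7758 and 6981 against 20242, 19939, 8567 and 17777, a rise of 1.09 (SE 0.28, adjusted p = 0.0137 in limma). The groups again did not overlap. Rplp0, the base on which both are mounted, went from 43729, 36434, 42967 and 39986 to 81756, 78683, 48034 and 74911, a smaller rise of 0.77 (SE 0.21, adjusted p = 0.017 in limma) or 1.71-fold.

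In the small subunit Rps27, a zinc finger protein at chr3:90212667-90213648, had 12533, 10260, 11784 and 9222 in allogeneic and 29771, 29397, 13082 and 27326 in treated libraries. Only 13082 in JL027-1 came close to the allogeneic range. It rose by 1.12 (SE 0.27, adjusted p = 0.0118 in limma). Rpl18, of the large subunit, had 13638, 11892, 13724 and 12026 against 33934, 34772, 16206 and 30019, and rose by 1.11 (SE 0.26, adjusted p = 0.0119 in limma), with no overlap. Rpl22, which is needed for the development of T cells, rose by 1.17 (SE 0.28, adjusted p = 0.0119 in limma), from 3159, 2336, 2872 and 2405 to 7704, 7015, 3512 and 6887. Rpsa, also known as a laminin receptor, rose from 34405, 25916, 31739 and 27190 to 65736, 60451, 36719 and 62467, by 0.89 (SE 0.23, adjusted p = 0.0142 in limma). Rps6, the substrate of the S6 kinases below mTOR, rose from 23513, 19486, 25761 and 22684 to 42172, 41177, 27354 and 42503, by 0.73 (SE 0.23, adjusted p = 0.0282 in limma).

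Rpl5 and Rpl11 form with the 5S RNA the particle that binds Mdm2 when ribosome assembly is disturbed. Rpl11 rose by 1.05 (SE 0.27, adjusted p = 0.0141 in limma), from 6924, 5239, 6705 and 5653 to 15145, 14954, 7348 and 15115. Rpl5 had 878, 598, 981 and 963 against 1222, 1183, 984 and 1416, a difference of 0.51 that did not pass (SE 0.22, adjusted p = 0.0955 in limma). The other members that did not pass were Rpl3 with 0.37 and Rpl4 with 0.33, which line the catalytic site and the exit tunnel, and the low copies Rps4l with 1.08 and Rpl39l with 0.87; their adjusted p lay between 0.0553 and 0.146 in limma. For Rpl4 the treated libraries read 42841, 35847, 33557 and 43768 and the allogeneic 33346, 27632, 32372 and 30647. They did not overlap, and JL027-1 exceeded the highest allogeneic library only slightly.

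One treated library, JL027-1, was the lowest of its group for 81 of 82 members and lay within the allogeneic range for 17. The other 3 treated libraries were all above every allogeneic library for 81 members, and the share of all genes meeting this rule was not counted. Without JL027-1 the number of members called was 79. The count rested on the other treated libraries: it was 0 without JL019-2, 6 without JL019-1 and 9 without JL027-2, and 23 without the allogeneic library JL019-2. With JL019 libraries alone the median change was 1.29 and with JL027 libraries alone 0.68, each with no member called (80 and 16 at an unadjusted p under 0.05 in limma). The shares of all genes at that unadjusted p are not given here.

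**Figure D2:**
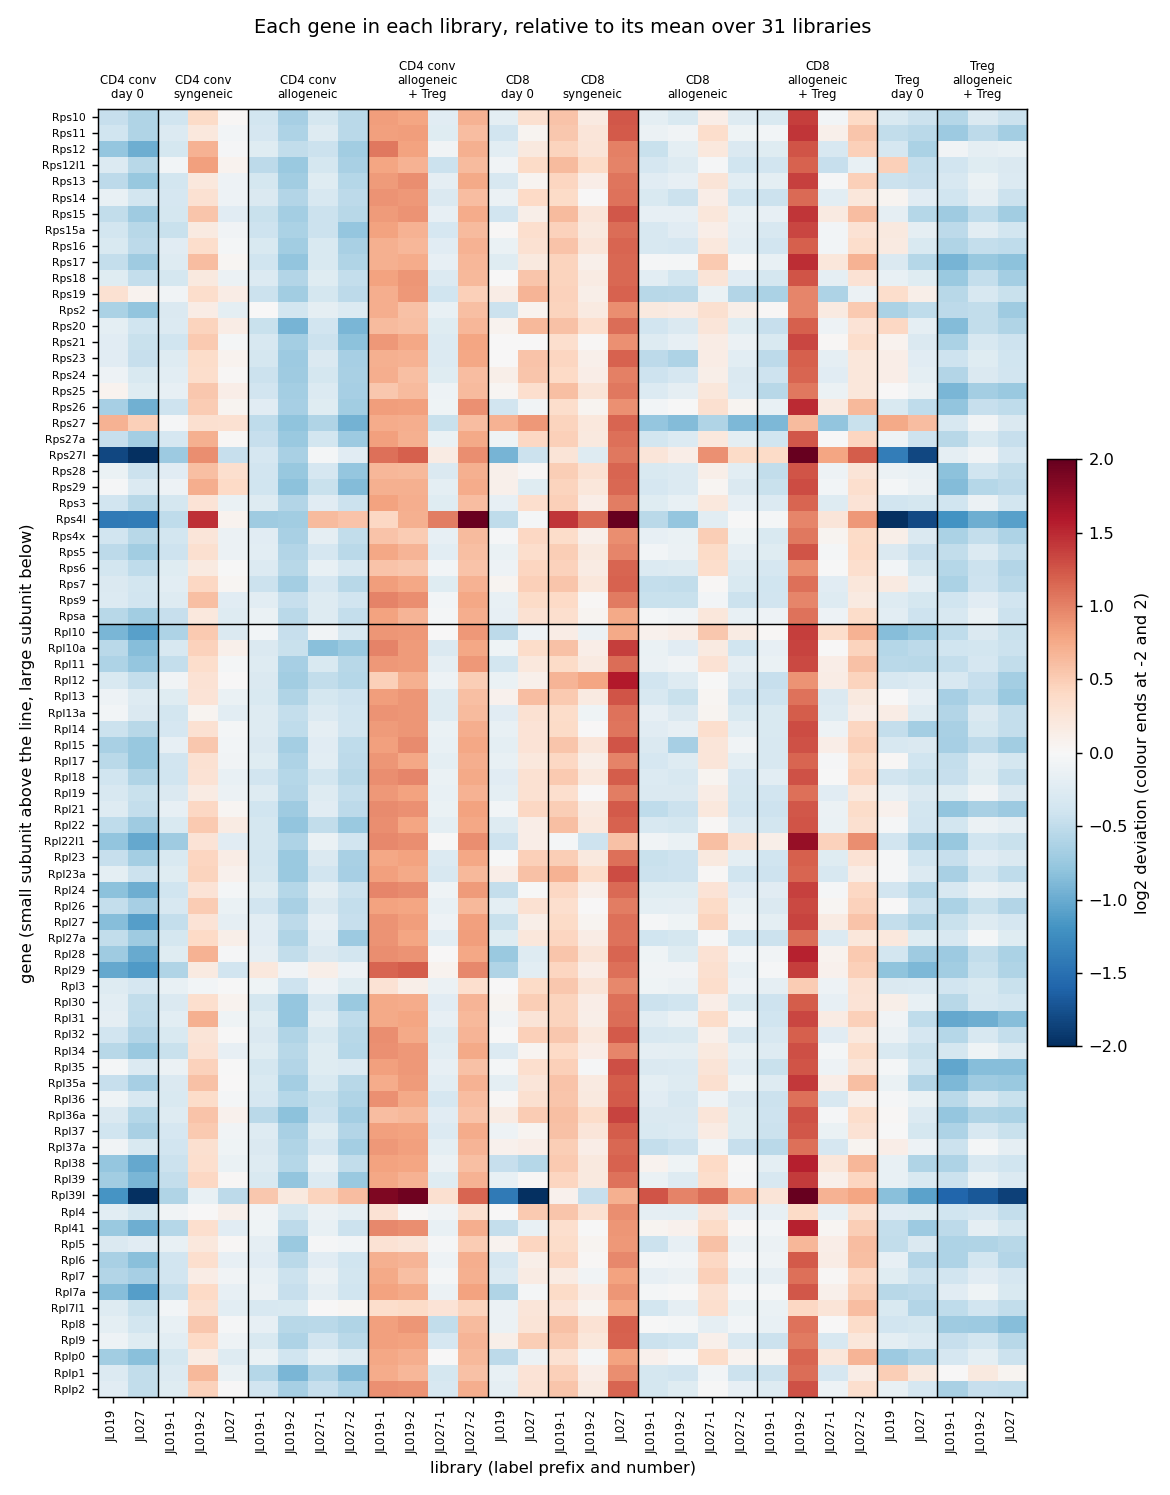
Log2 deviation of 80 of the 82 genes (rows; small subunit above the line), each from its own mean in each of 31 libraries (columns by group); colours end at -2 and 2. In the CD4 Treg-treated group JL027-1 is paler or bluer than the other 3 along nearly the whole column, and CD8 Treg-treated JL019-2 and CD8 syngeneic JL027 are high along the column.

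Other genes moved with the ribosomal proteins in this comparison. Of the 90 other short genes 47 rose and 1 fell, with a median of 0.79, and 38 of them had all treated above all allogeneic libraries. Relative to these short genes 11 members rose and none fell, where 33.6% of all genes were called on the same footing, and the median member stood 0.29 higher. Rplp1 with 0.46, Rpl22 with 0.48, Rps15 with 0.42 and Rpl18 with 0.41 were among the 11. Leaving out 1 library moved the number that rose to 0 (treated JL019-1 or JL027-2), 1 (treated JL019-2), 2 (allogeneic JL027-2) or 3 (allogeneic JL019-2), with no fall. Without treated JL027-1 16 members rose and 2 fell. The mitochondrial ribosomal proteins rose in 55 of 78 genes with a median of 0.86, and the subunits of oxidative phosphorylation in 57 of 73 with 1 fall and a median of 0.91. Proteasome subunits rose in 22 of 39 and fell in 1 (median 0.57). Of 40 ribosome biogenesis factors, which build the particles in the nucleolus, 16 rose and 5 fell (median 0.24). Examples are Mrps6 at 1.35 (adjusted p = 0.0027 in limma), the respiratory subunit Cox7a2 at 1.16 (adjusted p = 0.0123 in limma) and the biogenesis factor Mrto4 at 0.98 (adjusted p = 0.0094 in limma).

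Among 23 other TOP and translation genes 12 rose and none fell, with a median of 0.49; the elongation factor subunit Eef1d was 0.96 higher and the nascent chain binder Naca 1.01 higher (adjusted p = 0.0132 and 0.0144 in limma). Of 22 translational control genes 2 rose and 4 fell. Both partners of the complex that restrains mTOR fell: Tsc2 by 1.46 (adjusted p = 0.0155 in limma) and Tsc1 by 1.21 (adjusted p = 0.0175 in limma). The median of all 16741 genes was -0.00.

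**Figure D3:**
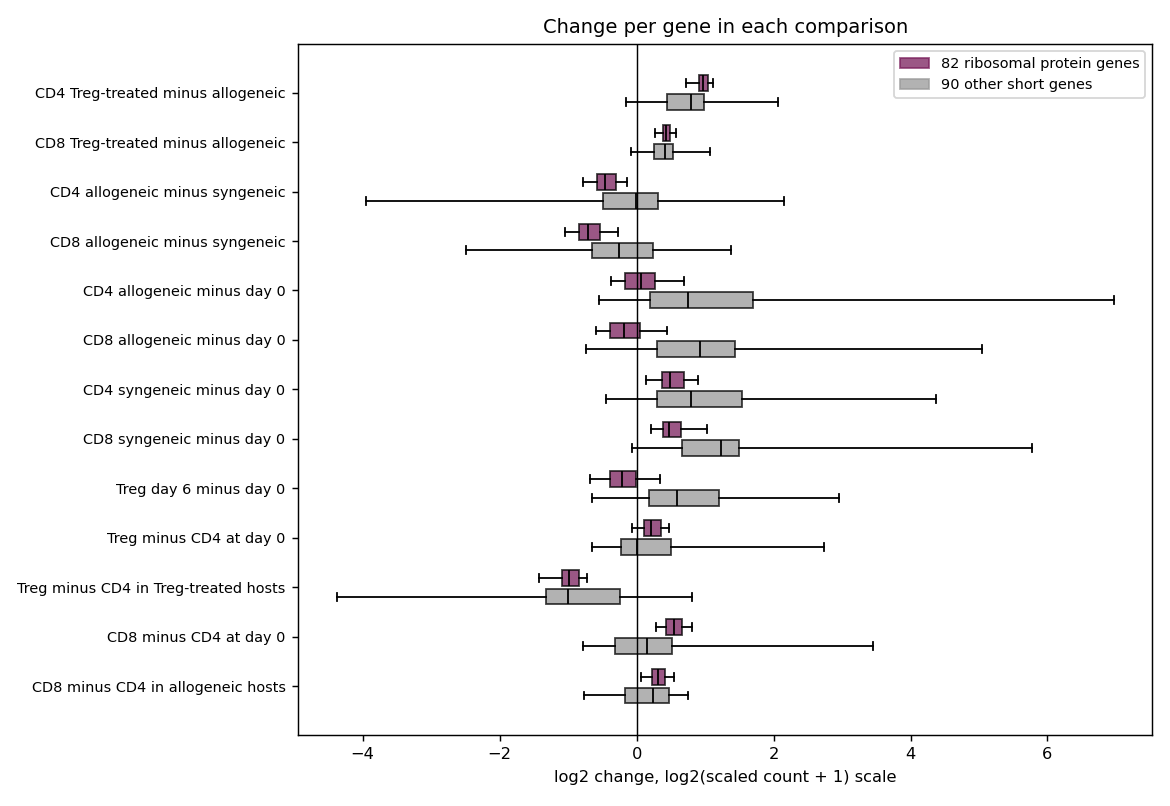
Log2 changes in the 13 comparisons between groups for the 82 ribosomal protein genes (purple) and 90 other short genes (grey). Boxes span the quartiles with the median, whiskers the 5th to 95th percentiles; both sets are high in CD4 Treg-treated minus allogeneic (medians 0.98 and 0.79), and against day 0 the other short genes lie above the ribosomal protein genes.

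The libraries also differed in a trend with gene length, measured over non-members as the slope of the centred log2 value per doubling of genomic span. Members span 496 to 11774 bases with a median of 3169.5, against a median of 20020 for all genes. In CD4 treated libraries the slope was -0.097, -0.120 and -0.067 in the 3 libraries with high members and 0.016 in JL027-1, and in the CD4 allogeneic group it was 0.019 to 0.044. The median member deviated by 0.82, 0.79 and 0.70 in those 3 libraries, by -0.18 in JL027-1 and by -0.63 to -0.27 in the allogeneic group. In CD8 cells the steepest slopes, -0.121 in treated JL019-2 and -0.103 in syngeneic JL027, fell in the libraries with the highest member deviations, 1.24 and 1.10. With the length trend of each library removed, 71 members were called in CD4 cells with a median of 0.73, and the share of all genes called in that fit is not given here. The trend moves with the treated libraries, and its part in the rise beyond that fit was not tested.

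**Figure D4:**
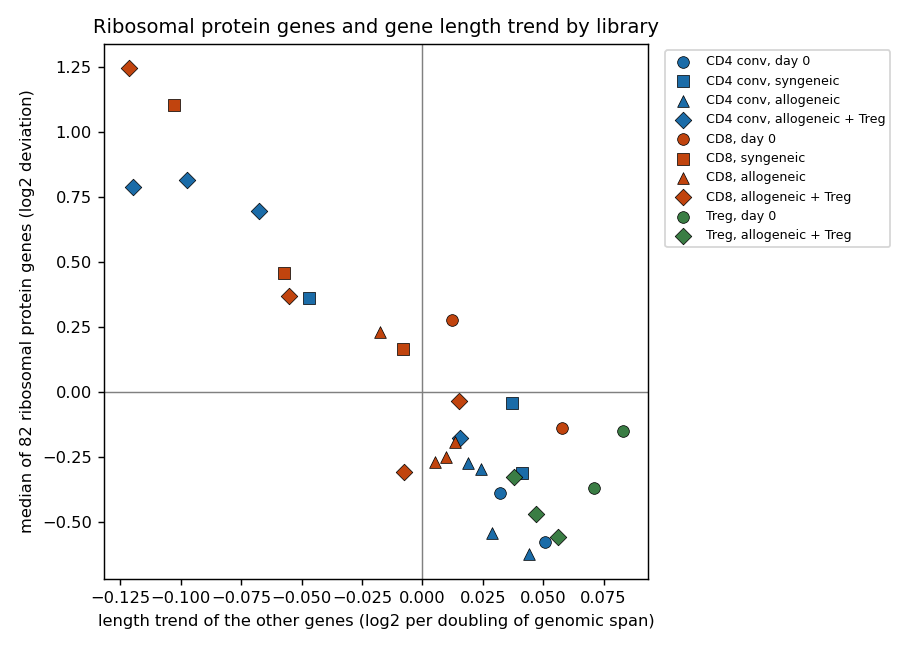
Median deviation of the ribosomal protein genes (vertical axis, log2 units) against the length trend over all other genes (horizontal axis, log2 units per doubling of span), 1 point per library, coloured by cell type. Libraries with the steepest negative trend, such as CD8 Treg-treated JL019-2 at -0.121, have the highest members, and the remaining CD4 Treg-treated library JL027-1 at 0.016 has a median of -0.18.

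In CD8 cells of the same hosts no ribosomal protein gene passed the test between Treg-treated and allogeneic hosts, where 0.0657% of all genes were called in limma. All 82 changes were above 0, with a median of 0.43, and 8 had an unadjusted p under 0.05: Rpl18, Rpl22l1, Rps4l, Rpl12, Rps15, Rpl15, Rpl7l1 and Rps27l. Rplp1 had 8031, 7790, 9832 and 7558 in allogeneic and 7613, 22031, 8097 and 11287 in treated libraries, a change of 0.43 (SE 0.27, adjusted p = 0.537 in limma). The groups overlapped, and 22031 in JL019-2 stood far above the rest. That library was the highest of its group for 81 members and held 2.73% of mitochondrial transcripts, against 1.39 to 1.59% in the other 3, and without it the median change was 0.12. The myeloid list held 0.041 to 0.090% of the CD8 treated and 0.025 to 0.038% of the CD8 allogeneic libraries. The erythroid list held 0.0087 and 0.0083% against 0.0045 and 0.0020% in JL019 and 0.061 and 0.058% against 0.048 and 0.028% in JL027 libraries, and the part of either list was not tested. The difference between the CD8 and CD4 responses was itself tested. Its median was -0.54, no member passed (none at an unadjusted p under 0.05), and 0.00597% of all genes did, so the responses of the cell types were not shown to differ. In the fit, no gene of the mitochondrial ribosomal protein, oxidative phosphorylation, proteasome, biogenesis or TOP lists was called in CD8 cells, with medians of 0.45 for the mitochondrial ribosomal proteins and 0.20 for biogenesis factors.

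The allogeneic response was set against syngeneic hosts, where donor and host match. In CD8 cells 29 ribosomal protein genes fell and none rose, with a median of -0.71, against 21.1% of all genes called and 10.7% called lower in limma. Rpl12, at the base of the stalk, had 553, 604, 713 and 586 in allogeneic and 1153, 1240 and 2172 in syngeneic libraries, and fell by 1.25 (SE 0.25, adjusted p = 0.000482 in limma), or 2.38-fold. Rps27 had 10471, 9834, 11715 and 9529 against 24266, 20629 and 39978, and fell by 1.39 (SE 0.29, adjusted p = 0.000746 in limma). Rps4l, a low copy related to Rps4x, had 119, 102, 150 and 174 against 469, 378 and 1053, and fell by 2.09 (SE 0.44, adjusted p = 0.000805 in limma). In all 3 genes the groups did not overlap, and syngeneic JL027 was the highest library. JL027 was the highest of its group for all 82 members. Without it 3 members were called, without JL019-1 11 and without JL019-2 47. Without the allogeneic libraries JL019-1, JL019-2 or JL027-2 the number was 9, 9 or 8. Rpl22l1 at 0.13, Rpl10 at -0.03 and Rpl39l at 0.89 (adjusted p = 0.154 in limma) did not pass.

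Rps6 fell by 0.71 (adjusted p = 0.0456 in limma) and Rplp1 by 0.82 (adjusted p = 0.0486 in limma). Biogenesis factors fell in 25 of 40 genes with no rise and a median of -0.78, and mitochondrial ribosomal proteins in 14 of 78 with a median of -0.35. Gnl3, a nucleolar protein of dividing cells, fell by 1.89 (adjusted p = 4e-06 in limma) and Nop56, of the particles that methylate ribosomal RNA, by 1.11 (adjusted p = 1.14e-05 in limma). Myc, which drives ribosome production, fell by 2.10 (adjusted p = 5.52e-07 in limma), while Mtor was 1.34 higher (adjusted p = 9.36e-05 in limma). Marker lists were higher in the CD8 syngeneic than in the allogeneic libraries: the myeloid list, the NK list (0.015 to 0.021% against 0.0049 to 0.0067%) and the B cell list (0.074 to 0.081% against 0.034 to 0.041%). None of these ranges overlapped, and their part was not tested. The NK list (Ncr1, Klrb1c and Eomes) was also higher in CD8 than in CD4 day 0 libraries (0.0062 to 0.0063% against 0.0022 to 0.0026%). It need not mark another cell type here.

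In CD4 cells 2 members fell against syngeneic hosts, with a median of -0.47 over the set and 14.6% of all genes called in limma. Rps29 had 12599, 9396, 12178 and 9148 in allogeneic and 15538, 27589 and 21837 in syngeneic libraries, and fell by 0.98 (SE 0.30, adjusted p = 0.0261 in limma). Rps27 had 12533, 10260, 11784 and 9222 against 17610, 22372 and 22058, and fell by 0.92 (SE 0.29, adjusted p = 0.0299 in limma). The groups of both genes did not overlap. The highest Rps29 value was in JL019-2, the library with myeloid markers, which was the highest of its group for 80 members. Without that library the median was -0.26 and no member was called. None was called either without syngeneic JL027 or without allogeneic JL019-2 or JL027-2, and 4 were without syngeneic JL019-1. Of 40 biogenesis factors 9 fell and none rose, among them Gnl3 by 1.22 (adjusted p = 0.0015 in limma) and Nop58 by 0.89 (adjusted p = 0.00323 in limma). The other syngeneic libraries also held more of the myeloid list than the allogeneic ones, as given above, and the B cell list held 0.086 to 0.211% of the 3 syngeneic against 0.049 to 0.060% of the allogeneic libraries; their part was not tested. The difference between the allogeneic effects of CD8 and CD4 cells had a median of -0.24, no member called, 2 at an unadjusted p under 0.05 and 4.65% of all genes called. Both comparisons rest on their own controls, and relative to the other short genes that median had the opposite sign, 0.09.

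Relative to the other short genes 27 members fell and 1 rose in CD8 cells (18.2% of all genes called) with a median of -0.36, and in CD4 cells 33 fell and none rose (12.4%) with a median of -0.45. The CD8 number was 9 without syngeneic JL027. The CD4 number was 10 without syngeneic JL027, 16 without syngeneic JL019-2, 18 without allogeneic JL027-2 and 57 without syngeneic JL019-1.

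Against day 0 few members were called in the main fit on the deposited scaling, and those moved in both directions. Quantile normalisation and fits of only the groups compared gave more calls in allogeneic cells, as listed at the end. In CD4 allogeneic cells 4 members rose and 1 fell (24.0% of all genes called), with a median of 0.07. In CD8 allogeneic cells 2 rose and 2 fell (30.4% of all genes called), with a median of -0.18; the median of all genes there was -0.13. Without day 0 JL019 or JL027 the CD4 number was 2 or 1, and without either day 0 library, allogeneic JL019-1 or allogeneic JL027-2 the CD8 number was 2. The B cell list was lower in both allogeneic groups than at day 0, as given above. The myeloid list was higher, at 0.022 to 0.042% against 0.0042 to 0.0081% in CD4 and 0.025 to 0.038% against 0.019 to 0.022% in CD8 cells. In CD8 allogeneic cells the erythroid list (0.0020 to 0.048% against 0.138 to 0.147%) and the mitochondrial transcripts (1.33 to 1.96% against 2.53 to 2.56%) were also lower than at day 0. The part of these shares was not tested. Over the same comparisons 34 and 36 of 73 oxidative phosphorylation genes rose and 24 of 39 proteasome genes rose in each cell type, with none falling. Biogenesis factors rose in 1 and fell in 1 of 40 in CD4 cells, and fell in 3 in CD8 cells. The mitochondrial ribosomal proteins rose in 13 and fell in 1 of 78 in CD4 cells (median 0.49), and rose in 15 and fell in 1 in CD8 cells (median 0.44). Mtor was higher by 1.57 in CD4 and 1.74 in CD8 cells (adjusted p = 4.92e-05 and 1.05e-05 in limma).

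The gene with the highest rise in both was Rpl39l, at chr16:10170197-10174911, a copy of Rpl39 best known from testis. Its CD4 values were 15 and 6 at day 0 and 53, 41, 49 and 55 in allogeneic cells, a rise of 2.21 (SE 0.49, adjusted p = 0.00126 in limma) or 4.64-fold. In CD8 cells they were 13 and 7 against 87, 72, 79 and 57, a rise of 2.85 (SE 0.49, adjusted p = 6.19e-05 in limma) or 7.20-fold. Neither pair of groups overlapped, and the level of Rpl39l stayed below 100 scaled counts, where Rpl39 itself had 4818 to 9272 at day 0 in these cells.

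Rps27l, at chr9:66944624-66949522, is a copy of Rps27 known as a target of p53. It had 1428 and 1218 at day 0 and 4020, 3224, 4924 and 4310 in CD4 allogeneic cells, a rise of 1.63 (SE 0.41, adjusted p = 0.00433 in limma), or 3.09-fold. In CD8 cells it had 2666 and 3750 against 5979, 5576, 9605 and 6599, a rise of 1.10 (SE 0.41, adjusted p = 0.0444 in limma), which was 0.33 and not called when libraries were centred on the other short genes. Both groups were separate from day 0. Rps27, the main copy, moved the other way, from 28864 and 24853 to 12533, 10260, 11784 and 9222 in CD4 cells and from 28874 and 32588 to 10471, 9834, 11715 and 9529 in CD8 cells. It fell by 1.30 (SE 0.33, adjusted p = 0.00401 in limma) and by 1.57 (SE 0.33, adjusted p = 0.000574 in limma), or 2.46-fold and 2.96-fold, with no overlap in either cell type.

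Rpl29 and Rps4l also rose in CD4 cells. Rpl29, a large-subunit protein with heparin-binding properties, had 5773 and 5346 at day 0 and 13521, 11134, 12722 and 10934 in CD4 allogeneic cells, a rise of 1.11 (SE 0.32, adjusted p = 0.012 in limma), or 0.18 and not called when libraries were centred on the other short genes. Rps4l had 65 in both day 0 libraries and 106, 107, 272 and 258 in CD4 allogeneic cells, and the JL019 libraries were lower than the JL027 libraries. It rose by 1.35 (SE 0.50, adjusted p = 0.0478 in limma).

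In syngeneic hosts 2 members rose in CD4 cells (13.0% of all genes called, median 0.49) and 6 in CD8 cells (24.2%, median 0.48), with none falling. The CD4 pair was Rps27l, with 3054, 9616 and 3672 against 1428 and 1218 at day 0 (1.85, SE 0.44, adjusted p = 0.00433 in limma), and Rps4l (1.75, SE 0.52, adjusted p = 0.0256 in limma). For both, the highest value was in JL019-2, the library with myeloid markers, and 1 member was called without it. Without syngeneic JL019-1 the number was 7, and without day 0 JL019 or JL027 it was 1 or 0. In CD8 cells Rpl39l had 13 and 7 at day 0 and 38, 26 and 60 in syngeneic hosts, a rise of 1.96 (SE 0.52, adjusted p = 0.00872 in limma). Rps4l had 122 and 169 against 469, 378 and 1053, a rise of 1.98 (SE 0.52, adjusted p = 0.00851 in limma). Rpl12, which fell in allogeneic against syngeneic cells, had 654 and 770 at day 0 and was 1.04 higher in syngeneic hosts (SE 0.30, adjusted p = 0.0143 in limma). With libraries centred on the other short genes the difference of Rpl12 was -0.083, and Rps4l and Rpl39l in CD8 and Rps4l in CD4 cells were no longer called (0.86, 0.83 and 0.80). Rpl28, Rpl38 and Rpl29 were higher by 1.16, 1.14 and 0.96. Without syngeneic JL027 no member was called, without day 0 JL019 1 was, and without syngeneic JL019-2 13 were. Marker lists differed between CD8 syngeneic and day 0 libraries without overlap. The myeloid list held 0.130 to 0.192% against 0.019 to 0.022% and the NK list 0.015 to 0.021% against 0.0062 to 0.0063%, while the B cell list held 0.074 to 0.081% against 0.272 to 0.281% and the erythroid list 0.011 to 0.031% against 0.138 to 0.147%. Mitochondrial transcripts were lower too, at 1.70 to 1.94% against 2.53 to 2.56%. In CD4 cells the myeloid and erythroid lists were higher in syngeneic libraries (at least 0.325 and 0.018%) than at day 0 (at most 0.0081 and 0.0052%). Their part was not tested.

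In Treg, recovered cells were compared with day 0 cells. Rps27l rose from 1934 and 1428 to 4494, 4816 and 4002, by 1.41 (SE 0.44, adjusted p = 0.0292 in limma), with no overlap. Quantile normalisation and a fit of these groups alone gave more calls in Treg, as listed at the end. In the main fit Rps27l was the only member called, where 13.3% of all genes were, and the median of the set was -0.21. Leaving out any 1 of the 5 libraries ended that call, as did centring on the other short genes (0.75). The erythroid list held 0.0064 to 0.196% of the recovered and 0.00054 to 0.0022% of the day 0 libraries, and the B cell list 0.176 to 0.207% and 0.161 to 0.164%. Mitochondrial transcripts took 1.11 to 1.51% of the recovered and 2.23 to 2.54% of the day 0 libraries. The part of these shares was not tested. Rps27 had 30128 and 27351 at day 0 and 14334, 16987 and 14644 in recovered Treg, a difference of -0.91 that did not pass (SE 0.35, adjusted p = 0.0852 in limma) although the groups did not overlap.

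Relative to the other short genes, which rose against day 0, between 35 and 72 members were called lower. In CD4 allogeneic cells 70 fell and 2 rose (41.3% of all genes called) with a median of -0.87; the 2 that rose were Rpl39l by 1.28 and Rps27l by 0.69. In CD8 allogeneic cells 72 fell and 1 rose (43.6%) with a median of -0.95, and in Treg 70 fell and none rose (21.1%) with a median of -0.88, or 46 without day 0 JL019. In syngeneic hosts 35 fell and 1 rose in CD4 cells (35.7%, median -0.46) and 63 fell and none rose in CD8 cells (51.7%, median -0.64). Without syngeneic JL019-2, 25 members fell and none rose in CD4 cells, with a median of -0.47. Without day 0 JL019 or JL027 the number called in CD4 cells was 12 or 13, without syngeneic JL019-1 19 and without syngeneic JL027 52. In CD8 cells it was 28 without day 0 JL019. The direction of the family median in CD4 allogeneic and in both syngeneic comparisons with day 0 thus flips between the deposited scaling (0.07, 0.49 and 0.48) and the scaling on short genes (-0.87, -0.46 and -0.64). With each library quantile normalised, these 3 medians were -0.25, 0.21 and -0.06.

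Cell types were also compared directly. At day 0 no member was called between CD8 and CD4 cells (3.32% of all genes called in limma), with 6 at an unadjusted p under 0.05 and a median of 0.55; both CD8 libraries were above both CD4 libraries for 75 members, against 26.6% of all genes. With quantile normalisation 9 members were called, and 10 in a fit of these groups alone. Other measures separated the same libraries: in CD8 and CD4 cells mitochondrial transcripts held 2.53 to 2.56% and 1.55 to 1.63%, the erythroid list 0.138 to 0.147% and 0.0024 to 0.0052%, the myeloid list 0.019 to 0.022% and 0.0042 to 0.0081% and the B cell list 0.272 to 0.281% and 0.179 to 0.191%. Their part was not tested. Between Treg and CD4 cells at day 0 no member was called either (3.89%), none had an unadjusted p under 0.05, and the median was 0.21. Mitochondrial transcripts held 2.23 to 2.54% of these Treg libraries, above the CD4 range. The myeloid list was also higher in Treg (0.013 to 0.017% against 0.0042 to 0.0081%). Lower in Treg were the B cell list (0.161 to 0.164% against 0.179 to 0.191%), the erythroid list (0.00054 to 0.0022% against 0.0024 to 0.0052%) and the NK list (0.0012 to 0.0016% against 0.0022 to 0.0026%). The part of these shares was not tested. In allogeneic hosts CD8 minus CD4 gave no call (6.15%), 3 members at an unadjusted p under 0.05 and a median of 0.32, or 6 calls in a fit of these groups alone. These fits did not pair libraries. In the 4 pairs with the same label prefix and number the share was 3.74, 3.66, 4.57 and 3.68% in CD8 libraries. It was 3.67, 3.26, 3.79 and 3.22% in their CD4 partners, lower in each pair.

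In Treg-treated hosts, Treg and CD4 cells of the same treatment group differed. Of 82 members 74 were lower in Treg and none higher, with a median of -0.98, against 30.0% of all genes called and 16.1% called lower; the median of all genes was 0.14. The B cell list held 0.176 to 0.207% of the Treg and 0.066 to 0.076% of the CD4 libraries, the myeloid list 0.0063 to 0.026% and 0.088 to 0.268%, and mitochondrial transcripts 1.11 to 1.51% and 1.59 to 2.53%. Their part in the difference was not tested. For 63 members every Treg library lay below every CD4 library, against 19.4% of all genes. Rpl39l had 11, 10 and 9 in Treg and 133, 140, 45 and 82 in CD4 libraries, and was lower by -3.05 on the log2 scale (SE 0.43, adjusted p = 1.43e-05 in limma), or 8.25-fold. Rpl29 had 7220, 8594 and 7701 against 26124, 26914, 12247 and 22639, a difference of -1.43 (SE 0.29, adjusted p = 0.00067 in limma). In both genes the groups did not overlap.

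Among the 8 members that did not pass were Rps27 at -0.63 (adjusted p = 0.0985 in limma), Rplp1 at -0.32 (adjusted p = 0.425 in limma), Rps12, Rps12l1, Rpl27a, Rpl37a and Rpl39. Rplp1 had 10276, 11648 and 10608 in Treg and 16996, 16134, 7964 and 15279 in CD4 cells, with the Treg values above JL027-1. The number of members called was 41 or 47 without CD4 JL019-1 or JL019-2, and 40 or 48 without Treg JL019-1 or JL027. Mitochondrial ribosomal proteins were lower in 71 of 78 genes (median -1.15) and oxidative phosphorylation subunits in 69 of 73 (median -1.08), with none higher. Of the other short genes 56 were lower and 5 higher (median -1.0). Relative to them 19 members were lower and 1 higher (43.3% of all genes called), with a median of -0.22. That number was 12 without CD4 JL027-2 and 10 without Treg JL019-1 or JL027.

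A further fit centred each library on its median ribosomal protein gene and asked which members departed from the family. In CD4 Treg-treated minus allogeneic cells 4 members were lower than the family (47.1% of all genes called on this footing): Rpl4 by -0.65 (adjusted p = 0.0097 in limma), Rpl3 by -0.61 (adjusted p = 0.0091 in limma), Rps2 by -0.33 and Rps6 by -0.25. Rpl3 and Rpl4 were called in 8 of 8 fits without one library, Rps2 and Rps6 in 2 each. The number called was 9 without treated JL027-1 and 2 without any other treated library or allogeneic JL027-2. Against day 0 the departures were larger. In CD4 allogeneic cells 16 members were higher and 10 lower than the family (17.7%), in CD8 allogeneic cells 23 higher and 9 lower (24.9%), and in Treg 12 higher and 7 lower (11.6%). These numbers rested on the day 0 libraries. Without day 0 JL019 they were 8 and 3 in CD4 cells, 16 and 5 in CD8 cells and 3 and 1 in Treg, and without day 0 JL027 9 and 4, 17 and 5, and 7 and 4.

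These 3 comparisons share no library but come from 1 fit, and 10 members departed the same way in all of them. The comparisons are not independent. Deviations of CD4 and CD8 allogeneic libraries with the same label prefix and number correlated at 0.135 to 0.416 in 4 of 4 pairs. Higher were Rpl10, Rpl24, Rpl27, Rpl29, Rpl41, Rpl7a, Rplp0 and Rps27l, which are 8 of the 16 higher in CD4 cells, of the 23 in CD8 cells and of the 12 in Treg. Lower were Rps27 and Rps19, 2 of the 10, 9 and 7 that were lower. On the base of all genes of each set, 8 of 82 members were higher and 2 of 82 lower in all 3. Of all 16741 genes 6.49% were higher and 1.0% lower than the family in all 3. The number of 10 fell to 4 without Treg day 0 JL019 (Rpl24, Rpl41, Rps27l and Rps27) and to 7 without Treg day 0 JL027; without any 1 of the other libraries it was 9 to 11. Rps27l stood 1.60, 1.37 and 1.64 above the family in CD4 cells, CD8 cells and Treg, and Rps27 stood at -1.33, -1.30 and -0.69 (highest adjusted p of the 6 values 0.0008 in limma). Rps19, the gene most often mutated in Diamond-Blackfan anaemia, stood at -0.72, -0.60 and -0.45. In scaled counts Rps19 had 34592 and 29599 in CD4 day 0 and 20786, 17311, 21975 and 19465 in CD4 allogeneic libraries, which did not overlap. Rpl10, placed late on the large subunit before it joins the small one, stood at 0.75, 0.81 and 0.61. It had 9152 and 8199 at day 0 and 16662, 12619, 16437 and 13905 in CD4 allogeneic cells, again with no overlap. Rps27, Rps27l, Rpl39l, Rpl29 and Rpl10 were called in all 6 fits without one library in both CD4 and CD8 cells. In Treg, Rps27 and Rps27l were called in 5 of 5 such fits, Rpl10 and Rpl29 in 4, Rps19 in 3 and Rpl39l in 0.

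Against syngeneic hosts 15 members were higher and 6 lower than the family in CD8 allogeneic cells (28.4% of all genes called), and 10 higher and 3 lower in CD4 cells (14.5%). Rpl39l departed most in both, by 1.64 in CD8 (adjusted p = 0.000259 in limma) and 1.38 in CD4 cells (adjusted p = 0.00283 in limma), and was called in 7 of 7 fits without one library in each. Rpl22l1 had the lowest p in CD8 cells, at 0.88 (SE 0.13, adjusted p = 1.3e-05 in limma), and was called in 7 of 7 fits without one library, from 0.80 to 0.93. Rpl29 had the lowest p in CD4 cells, at 0.80 (SE 0.10, adjusted p = 3.7e-06 in limma), and Rps27 was lower in both, at -0.65 in CD8 and -0.42 in CD4 cells. Without syngeneic JL027 the number called was 10 in CD8 and 4 in CD4 cells, and without allogeneic JL019-1 or JL019-2 it was 8 or 7 in CD4 cells. Without syngeneic JL019-2, 8 members were higher and 2 lower in CD4 cells. The Rpl29 departure differed between cell types by -0.61 (adjusted p = 0.0151 in limma), the only member called in that difference (2.97% of all genes called). In syngeneic hosts against day 0, 2 members were higher and 6 lower in CD4 (8.33%) and 7 higher and 1 lower in CD8 cells (17.0%), with Rps27 at -0.90 and -0.65. Without syngeneic JL019-2, 1 member was higher and 6 lower in CD4 cells. Without day 0 JL019 or JL027 the number was 2 or 3 in CD4 and 3 or 4 in CD8 cells. Between Treg and CD4 cells of treated hosts 5 were higher and 10 lower (48.2%), with Rpl39l at -2.08 and Rplp1 at 0.65, and 9 in all without Treg JL019-1 or JL019-2.

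The paralog pairs can be read within a library as a log2 ratio of the copy to its main gene, which no factor per library changes. For Rps27l to Rps27 the ratio was -4.34 ± 0.01 in CD4 day 0, -3.28 ± 0.22 in CD8 day 0 and -4.11 ± 0.21 in Treg day 0 (SD, n = 2 each). It was -1.42 ± 0.28 in CD4 and -0.61 ± 0.25 in CD8 allogeneic cells and -1.37 ± 0.13 and -0.33 ± 0.16 in CD4 and CD8 cells of treated hosts (SD, n = 4 each), and -1.79 ± 0.10 in recovered Treg (SD, n = 3). CD8 syngeneic cells had -2.07 ± 0.19 and CD4 syngeneic cells -2.11 ± 0.77 (SD, n = 3 each), the latter with JL019-2 at -1.22. Every recovered library was above every day 0 library of its cell type, and the allogeneic libraries were above the syngeneic ones in CD8 cells. The treated libraries, JL027-1 included, did not stand apart from the allogeneic ones in this ratio in CD4 cells.

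For Rpl22l1 to Rpl22 the ratio was -0.44 ± 0.02 and -0.23 ± 0.11 in CD4 and CD8 day 0 cells (SD, n = 2 each), -0.51 ± 0.09 and -0.78 ± 0.02 in syngeneic (SD, n = 3 each) and 0.07 ± 0.17 and 0.25 ± 0.19 in allogeneic cells (SD, n = 4 each). In CD8 cells all 4 allogeneic libraries were above 0 and all 3 syngeneic libraries below -0.7. The JL019 libraries were lower than the JL027 libraries in both allogeneic groups, 0.10 and 0.08 against 0.42 and 0.42 in CD8 cells. Treg stayed at -0.46 ± 0.06 before (SD, n = 2) and -0.47 ± 0.07 after transplant (SD, n = 3).

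For Rpl39l to Rpl39 the ratio was -9.05 ± 0.74 and -9.88 ± 0.79 in CD4 and CD8 day 0 cells (SD, n = 2 each), -7.00 ± 0.27 and -6.95 ± 0.35 in allogeneic (SD, n = 4 each) and -9.53 ± 0.25 in recovered Treg (SD, n = 3). The mean of recovered Treg lay below that of every recovered CD4 and CD8 group. The Rps4l to Rps4x ratio in CD8 cells was -5.18 ± 0.36 in syngeneic (SD, n = 3) and -6.84 ± 0.36 in allogeneic hosts (SD, n = 4). In CD4 cells the same groups had -6.01 ± 0.71 (SD, n = 3) and -6.10 ± 0.73 (SD, n = 4), a difference within the SD. Rpl7l1 to Rpl7 stayed between -2.64 and -2.22 in the group means. No p is given for these ratios, whose genes were chosen as pairs.

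**Figure D5:**
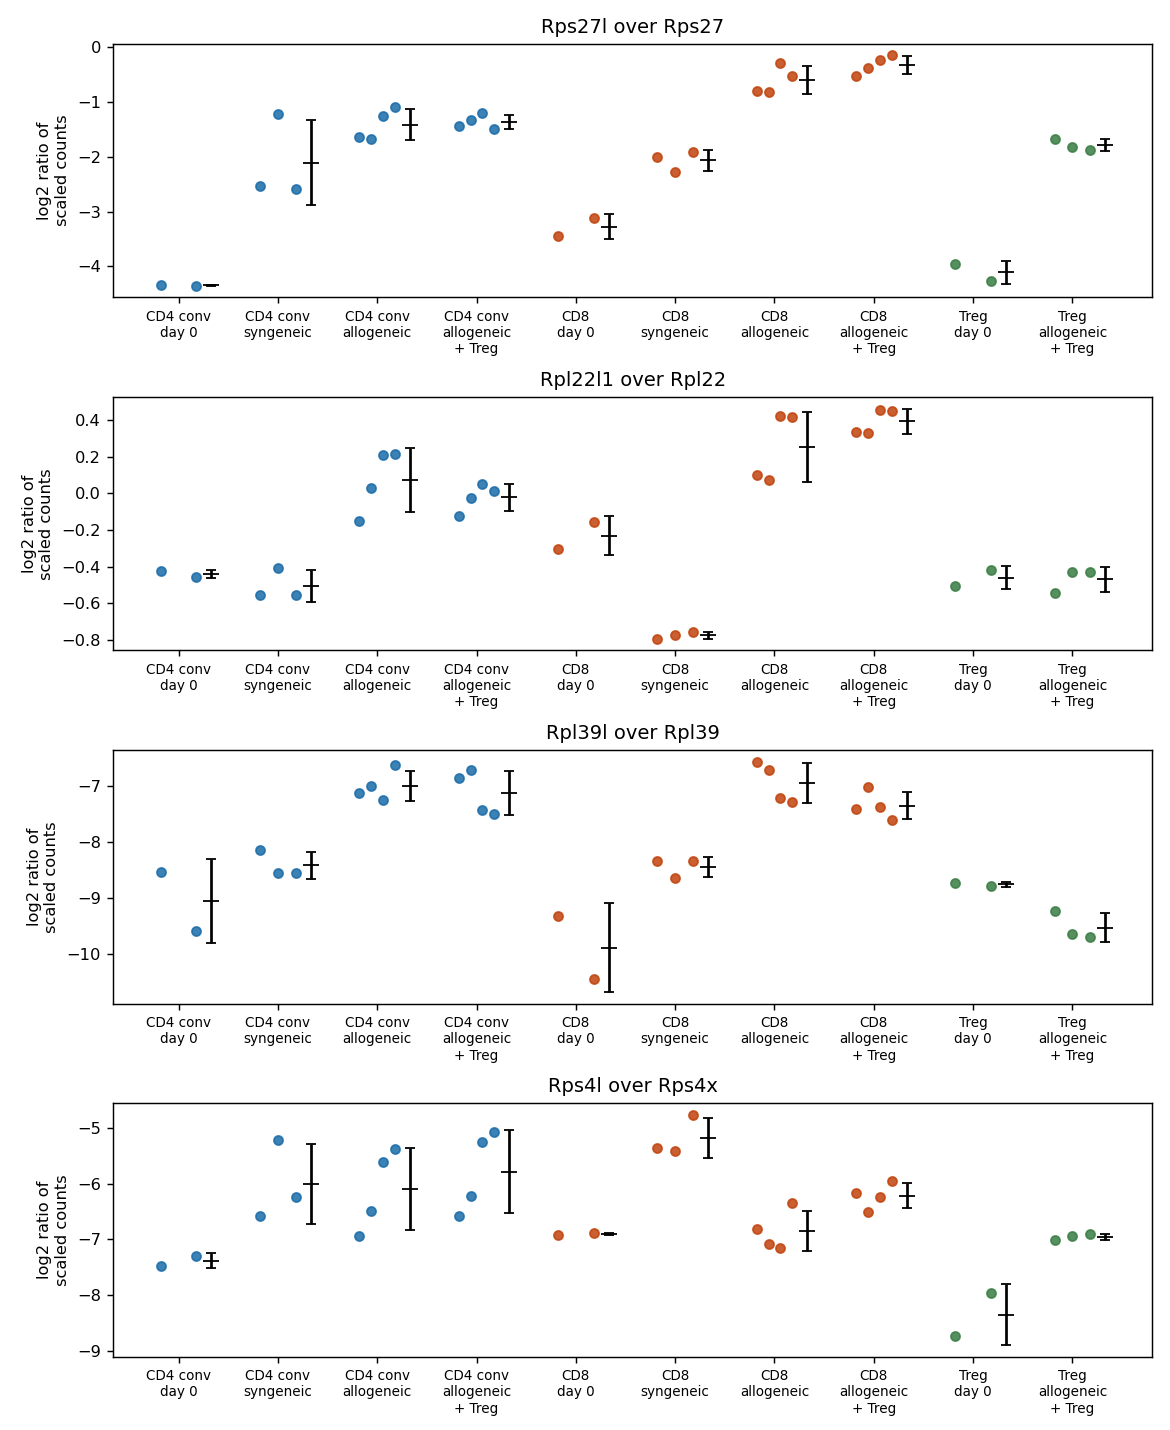
Log2 ratio of each paralog to its main gene (vertical axis) in every library by group, for Rps27l/Rps27, Rpl22l1/Rpl22, Rpl39l/Rpl39 and Rps4l/Rps4x; points are libraries and bars the mean with its SD. The Rps27l/Rps27 ratio is lowest at day 0 (-4.34 in CD4 cells) and highest in CD8 cells of allogeneic (-0.61) and Treg-treated hosts (-0.33).

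Ribosomal genes that the symbols leave out were measured beside the set in CD4 Treg-treated minus allogeneic cells. Fau, which encodes a ribosomal protein fused to a ubiquitin-like leader, was 1.08 higher, Rack1, a scaffold on the small subunit, 0.72, Rps3a1 0.88 and Rpl36al 1.04 higher (adjusted p 0.015 to 0.020 in limma). In CD8 cells the same 4 genes gave 0.32 to 0.60, with adjusted p from 0.430 to 0.552 in limma.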

How the data were processed

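Sorted donor T cells were measured by bulk RNA-seq. Per the labels' protocols, full-length cDNA was made with SMARTer v4 and libraries with Nextera XT. Per the submitters' processing notes the authors used FastQC 0.11.7, kallisto and DESeq2, with GRCm38 and mm10 named as builds. The deposited signal is the authors' DESeq2-scaled count per gene; reads were not recoverable, so the depth and its precision are unknown. Libraries were grouped by cell type and treatment in the labels.

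From the table, log2(value + 1) was fitted for all 16741 genes and 31 libraries in limma 3.58.1 (R 4.3.3; group means, trend, robust), with Benjamini-Hochberg adjustment over all genes and calls at adjusted p under 0.05, in 15 contrasts. Fold changes are on that scale and understate those of low genes. The unit was not a count, so the count test foreseen for counts was not used. Shares, medians and ratios carry no p, and counts at an unadjusted p are given for members only, without a share of all genes. Scripts were tested on simulated data. Python 3.11.15, numpy 2.4.6, pandas 2.3.3 and matplotlib 3.10.9 were used.

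The members and lists were chosen with earlier results of these data known. Named genes were, per contrast, up to 3 called members in each direction with the lowest p, the 5 with the highest mean scaled count (Rplp0, Rpl13, Rpsa and Rpl4 among them), the stalk proteins, Rpsa, Rps6, Rpl5, Rpl11, 7 paralogs with their main genes (Rpl3l and Rpl10l were not analysed here), ribosomal genes outside the symbols and up to 2 called genes per list; other names were chosen after their values were seen, and a few genes the rule names are not reported here. Genomic spans came from RefSeq GRCm38.p6 for 94.7% of genes. Alternatives changed scaling, pseudocount, filter, groups in the fit, blocks, members and left-out libraries. The sample of TCR sequencing only, in no RNA group, was not used.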

Additional observations from a re-analysis of the deposited data

Results flagged for a closer look

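In groups of 4 to 10 libraries, a value was picked out when the gap to its nearest neighbour was a large part of the group's range by Dixon's criterion, which chance alone meets in about 1 in 20 groups. In CD4 cells of Treg-treated hosts JL027-1 was low for Rps27 (13082) and Rps29 (14459), where the other 3 libraries lay close together. In CD8 allogeneic cells JL027-1 was high for the share of the library held by ribosomal protein genes (4.57%), for Rpl18 (18352) and for Rps29 (17117). In CD8 cells of Treg-treated hosts JL019-2 was high for Rpl39l (185). Flags of the same library are not separate events. CD4 treated JL027-1 was the lowest of its group for 81 of 82 members, and CD8 allogeneic JL027-1 the highest for 79. The number of values screened is not given here. Further, the change of Rpl29 relative to the median ribosomal protein gene between allogeneic and syngeneic hosts differed between CD8 and CD4 cells by -0.61 (adjusted p = 0.0151 in limma); it was called in 14 of 14 fits without one library, from -0.67 to -0.57.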

How the results depend on the processing

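Depth behind the scaled counts is unknown, groups hold 2 to 4 libraries, and the number of ribosomal protein genes called moved with the scaling; the cause was not tested for any value below. Leaving out each library in turn gave 0 to 79 calls for CD4 Treg-treated minus allogeneic, 0 to 4 for CD4 and 3 to 47 for CD8 allogeneic minus syngeneic, 1 to 5 for CD4 and 2 to 3 for CD8 allogeneic minus day 0, 0 to 7 for CD4 and 0 to 13 for CD8 syngeneic minus day 0, 0 for Treg day 6 minus day 0, 40 to 81 for Treg minus CD4 in treated hosts and 0 to 1 for the difference of allogeneic effects. Where that left 1 library in a day 0 group, it was assumed to vary like the other groups.

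With libraries centred on the median ribosomal protein gene the calls were 4 for CD4 Treg-treated minus allogeneic, 13 for CD4 and 21 for CD8 allogeneic minus syngeneic, 26 for CD4 and 32 for CD8 allogeneic minus day 0, 8 for CD4 syngeneic minus day 0, 19 for Treg, 15 for Treg minus CD4 in treated hosts, 2 for CD8 minus CD4 in allogeneic hosts and 1 for the difference of allogeneic effects. By construction this removes a change common to the family. Centred on the other short genes they were 11, 33 for CD4 allogeneic minus syngeneic, 72 for CD4 and 73 for CD8 allogeneic minus day 0, 36 for CD4 and 63 for CD8 syngeneic minus day 0, 70 for Treg, 20 for Treg minus CD4 in treated hosts and 1 for CD8 minus CD4 in allogeneic hosts; Rpl12 in CD8 syngeneic minus day 0 went from 1.04 to -0.083.

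Quantile normalisation gave 32 and 55 calls for CD4 and CD8 allogeneic minus syngeneic, 20 and 48 for CD4 and CD8 allogeneic minus day 0, 8 each for CD4 and CD8 syngeneic minus day 0, 38 for Treg and 9 for CD8 minus CD4 at day 0. Centring on the median gene gave 0 for CD4 and 8 for CD8 allogeneic minus syngeneic, 1 for CD4 syngeneic minus day 0 and 0 for Treg. With the length trend removed there were 7 for CD4 allogeneic minus syngeneic, 7 for CD8 allogeneic minus day 0, 6 for CD4 syngeneic minus day 0 and 3 for Treg. Fits of only the groups compared gave 20 and 7 for CD4 and CD8 allogeneic minus day 0, 0 and 3 for CD4 and CD8 syngeneic minus day 0, 15 for Treg, 2 for Treg minus CD4 and 10 for CD8 minus CD4 at day 0, and 6 for CD8 minus CD4 in allogeneic hosts. With fewer samples, JL019 libraries alone gave 0 for CD4 Treg-treated minus allogeneic and for CD4 and CD8 allogeneic minus syngeneic and 18 for Treg minus CD4 in treated hosts, and JL027 libraries alone gave 0 for CD4 Treg-treated minus allogeneic. The single-prefix fits, those centred on short genes and the fits without one library relative to the family or short genes were chosen after seeing the data.

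The label prefix as replicate block gave 78 calls for CD4 Treg-treated minus allogeneic, 24 for CD8 allogeneic minus syngeneic and 72 for Treg minus CD4 in treated hosts. Prefix, treatment and label number together as block gave 76, 31 and 79. Neither moved a count by over 1.5 times. The labels do not say that the number stands for a recipient. Deviations of CD4 and CD8 libraries with the same label prefix and number, where given, correlated above 0.1 in 4 of 4 allogeneic pairs, 2 of 4 treated and 1 of 3 syngeneic pairs. In treated hosts 2 of 2 CD8 and Treg pairs (0.282 and 0.303) and 0 of 2 CD4 and Treg pairs did. Among sets of at least 3 pairs the numbers thus paired the allogeneic CD4 and CD8 samples. With the 47 short genes at or below the members' median span, the difference of medians was 0.122 for CD4 Treg-treated minus allogeneic, 0.324 for Treg minus CD4 and 0.492 for CD8 minus CD4 at day 0, and 0.0797 instead of -0.0172 for Treg minus CD4 in treated hosts. Library weights did not converge (0.103 to 113) and were not used, and short genes by protein length were not run. Of the alternatives for single named genes, 278 kept direction and call, 63 lost the call and 1 reversed. Of those for counts and set values, 463 stayed within 1.5 times or 1 SD with their direction, 48 moved further, 19 lost and 8 gained a call, and 15 reversed the direction of most calls or of a median.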

Other observations

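Rps3a1, the gene of another small-subunit protein, and its copies Rps3a2 and Rps3a3 stood outside the set by symbol. Rps3a1 had 3915 and 3257 scaled counts in day 0 Treg and 2050, 2586 and 2521 in recovered Treg, against 16340 to 55979 in all CD4 and CD8 libraries. Rps3a2 had 11398 and 9826 in day 0 Treg and 6666, 7495 and 6964 in recovered Treg, against 13 to 100 in all CD4 and CD8 libraries. Rps3a3 had 8035 and 6104, and then 3667, 4278 and 3895, against 0 to 42. The ranges of Treg and the other cells did not overlap for any of the 3 genes, before or after transplant. At day 0 Treg minus CD4 was -2.59 for Rps3a1 (adjusted p = 2.64e-05 in limma) and 8.35 for Rps3a2 (adjusted p = 1.26e-09 in limma). How reads were divided between these copies is not known, nor whether the donors of the Treg differed from those of the other cells, so these are differences between entries of the table.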
